A study of Caenorhabditis elegans with 9 samples.

Results

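The histone genes of *Caenorhabditis elegans* carry the symbol his followed by a number, and 72 of the 31106 genes counted in these libraries have such a symbol. They were found by symbol alone, and all 72 were matched through their sequence names to a RefSeq symbol. Polyadenylated RNA was sequenced from whole 1-day-old adult worms, in 3 libraries for each of 3 genotypes. These were the N2 wild-type, strain USC661 with the allele *hrde-1(tm1200)*, which affects an Argonaute that silences genes in germline nuclei, and strain FD53 with *hrde-2(qe20)*, labelled *hrde-2/enri-3(qe20)* V, which affects a germ granule protein that acts with HRDE-1. Each library came from 50000 synchronized animals grown at 20 °C and collected about 68 h after L1 arrest, and the labels name no other allele or treatment. The mutants were compared with wild-type and with each other to ask how the loss of either protein changes mRNA levels.

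Nucleosomes wrap DNA around the core histones H2A, H2B, H3 and H4, and the linker histone H1 binds the DNA between them. In animals, most core histone genes are small, lack introns and lie in repeated clusters that are transcribed during DNA replication, and their mRNAs typically end in a stem-loop in place of a poly(A) tail. Replacement variants such as H3.3 come from separate genes, which often have introns and polyadenylated mRNAs and are used outside of replication too.

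The 72 genes were sorted by the length of their annotated coding sequence into 17 H2A, 16 H2B, 20 H3 and 16 H4 genes and the H1 gene *his-24*. The short genes *his-39*, with 67 codons, and *his-73*, with 46 codons, were left unassigned. A gene was called clustered when another histone gene lay within 5000 bp, and this rule gave 67 clustered genes in 14 clusters and 5 isolated genes. The isolated genes were *his-24* and *his-71* on chromosome X, *his-72* on III, *his-73* on II and *his-74* on V. The clusters were spread over chromosomes I, II, III, IV, V and X, and chromosome V held the most histone genes (27), followed by IV (22) and II (14). The largest cluster held 13 genes on chromosome II, from 13817759 to 13828697 in the WS258 assembly.

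Most clustered genes were arranged as divergent pairs, in which neighbouring genes are transcribed away from each other. There were 31 such pairs, of which 16 joined an H2A and an H2B gene and 14 an H3 and an H4 gene. The remaining pair, *his-67* and *his-68* on chromosome I, joined an H4 and an H2A gene. The stretch between the partners was short, with a median of 250.5 bp (95 to 292 bp) for H2A and H2B pairs and 226.5 bp (190 to 276 bp) for H3 and H4 pairs. On chromosome V, 6 genes of the cluster at 8847393 to 8854053 and 6 of the cluster at 8889488 to 8898645 matched in order and class, and each pair of counterparts lay 42095 bp apart.

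Only 7 histone genes had an intron in every annotated transcript: *his-24*, *his-35*, *his-37*, *his-41*, *his-71*, *his-72* and *his-74*. These were also the histone genes with an annotated 3′ untranslated region, together with *his-57*, which has an intron in some of its transcripts. The 7 genes with an intron took 28477 of the 36044 histone counts in the 9 libraries (79.0%). The 65 genes without one took the other 7567 counts (21.0%), and 22 of them had no count in any library. The deposited gene model of *his-39* has a second exon that the Ensembl annotation lacks, and this gene was at 0 counts.

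**Figure D1:**
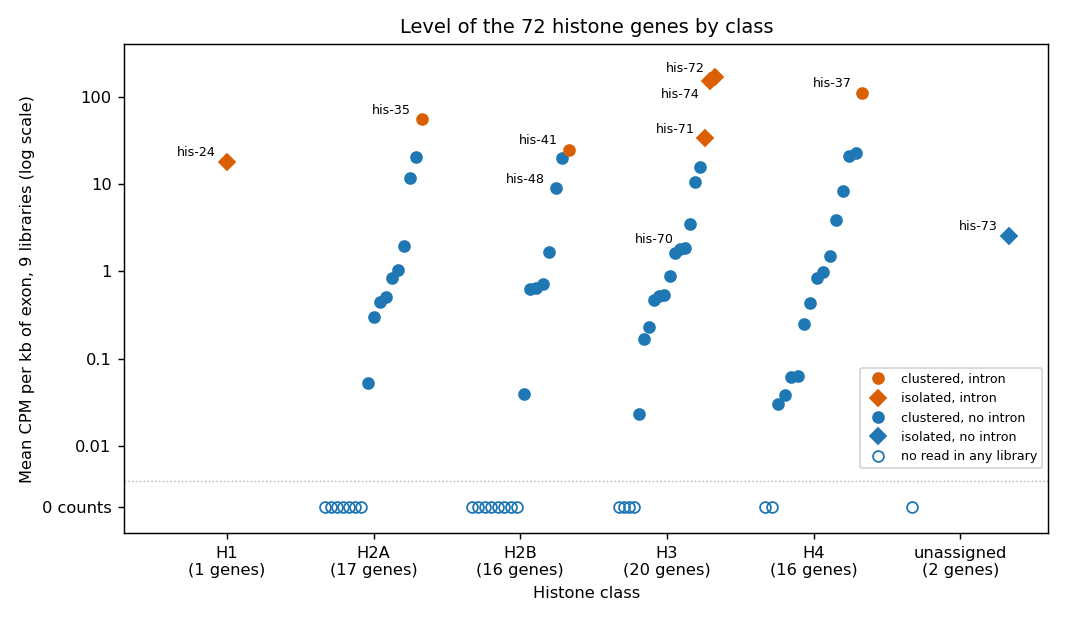
Mean level of each of the 72 histone genes over the 9 libraries (y axis, CPM per kb of exon, log scale, with genes at 0 counts in a separate band) by histone class (x axis). Orange points are genes with an intron, blue points genes without one, circles clustered and diamonds isolated genes. The genes with an intron sit at or near the top of each class, up to 166 for *his-72*, and the genes without one spread from 22.4 down to 0.

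Levels are given as CPM, the count per 1000000 counts of the scaled library, and, between genes, as CPM per kb of the exon length. The highest levels per kb were those of the H3.3-type genes *his-72*, at 166 CPM per kb (122.9 to 213.8 over the 9 libraries), and *his-74*, at 149 (116 to 198). The H4 gene *his-37* followed at 111 (70.5 to 165), the H2A gene *his-35* at 55.4 (42.1 to 80.1), the H3.3-type gene *his-71* at 33.5 (27.9 to 51.8) and the H2B gene *his-41* at 24.7 (19.5 to 35.4). The library ranges of *his-72*, *his-74* and *his-37* overlapped, so their order was not larger than the spread between libraries. The lowest of the genes with an intron, *his-24*, was at 18.0 CPM per kb (12.2 to 23.0).

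Among the 65 genes without an intron, the median was 0.301 CPM per kb, and 7 genes reached 10. The highest were the H4 genes *his-64* (22.4) and *his-60* (20.7), the H2A gene *his-68* (20.4) and the H2B gene *his-62* (19.8). For comparison, the median of all 12141 genes tested was 11.3 CPM per kb, and *his-72*, *his-74* and *his-37* stood at percentiles 95.6, 95.1 and 93.2 of that distribution. By position, the 5 isolated genes took 55.6% of the histone counts and the 67 clustered genes 44.4%. The clustered genes *his-35*, *his-41* and *his-37* form an H2A, H2B and H4 cluster on chromosome V (9544611 to 9547607) in which every gene has an intron, and it alone gave 8534 counts, against 7474 for the other 64 clustered genes.

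Reads that mapped to several places, and reads that overlapped several genes, were not counted. This bears on near-identical copies, whose reads cannot be placed, and levels of the repeated genes are therefore uncertain. The gene bodies of *his-72*, *his-41* and *his-24* share up to 226, 173 and 222 bp with another gene. Their levels per kb of the full exon length may thus be too low, which was not tested. In the Ensembl names, 36 of the 72 genes shared a name with another histone gene; these had 219 counts in all (0.608%), 21 of them were at 0, and none could be tested. The other 36 had 35825 counts (99.4%), and 1 of them was at 0. All 6 genes of the first repeated block on chromosome V (*his-49* to *his-54*) were at 0 in every library, and of their counterparts in the second block *his-28* had 1 count and the other 5 had none.

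The gene models differed as well. For 27 genes without an intron, the deposited exon length was no longer than the coding sequence with its stop codon. These had 16 counts in all, 19 were at 0, and no library had more than 7 counts for one of them. The 38 genes without an intron whose model went beyond the coding region had 7551 counts, and 3 were at 0. The part that copy number, gene models and poly(A) selection have in these levels was not tested, because no genome sequence was used here. A 0 allows up to 3 counts, which is 0.248 to 0.538 CPM depending on the library, for counting error only.

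Partners of a divergent pair were often detected unequally. Both partners were at 0 in 8 of the 31 pairs, and 5 pairs had reads from only 1 partner. In the 6 pairs in which both genes were tested, the higher partner exceeded the lower by 1.10-fold (*his-38* over *his-40*) to 2.44-fold (*his-68* over *his-67*) in CPM per kb. The order of *his-38* and *his-40* rested on wild-type replicate 1, and over the other 8 libraries *his-40* was the higher, by 1.27-fold. The pair *his-47* and *his-48* on chromosome IV was more unequal, with 28 counts for the H2A gene *his-47* and 402 for the H2B gene *his-48* over the 9 libraries.

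Counts per library ran from 5801326 to 11884233, and 19.4% to 31.4% of them came from ribosomal RNA genes. Histone genes took 0.0369% to 0.0481% of the counts, and 38 to 43 of the 72 genes had a count in any library. The *hrde-1* gene was at 201, 355 and 301 CPM in wild-type libraries, 108, 129 and 144 in *hrde-1(tm1200)* and 445, 444 and 436 in *hrde-2(qe20)*, and the *hrde-2* gene at 23.0, 52.2 and 42.3, at 34.6, 38.3 and 43.1 and at 14.4, 15.6 and 19.4 CPM, so each was lowest in its own mutant. Wild-type replicate 1 stood apart from the other wild-type libraries (r = 0.935 and 0.937, against 0.979 between replicates 2 and 3, for log2 CPM across genes, which are not independent replicates). In that library, 12 oocyte marker genes summed to 2414 CPM, against 6945 and 6017 in the others. Without it, edgeR's quasi-likelihood test called 767 genes higher and 891 lower in *hrde-1(tm1200)*, against 150 and 38 with it, and values without it are given below where it changed a call, turned a direction or carried a value.

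The summed histone level was close in the 3 genotypes. It was 415, 452 and 431 CPM in wild-type libraries, 404, 427 and 427 CPM in *hrde-1(tm1200)*, and 392, 360 and 435 CPM in *hrde-2(qe20)*. The means were 432.6 ± 18.3, 419.0 ± 13.1 and 395.9 ± 37.7 CPM (SD, n = 3), and the libraries of all 3 groups overlapped. In whole worms, fewer cells of a type and less RNA per cell cannot be told apart. In wild-type replicate 1 the summed level was 415 CPM, the lowest of the wild-type libraries.

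The genes with an intron summed to 348.6 ± 7.9 CPM in wild-type libraries, 331.4 ± 10.0 in *hrde-1(tm1200)* and 307.0 ± 33.4 in *hrde-2(qe20)*. Every *hrde-1(tm1200)* library, at 319.9 to 338.0 CPM, was below every wild-type library, at 343.6 to 357.8, and *hrde-2(qe20)*, at 282.1 to 345.0, overlapped both. The genes without one summed to 83.9 ± 12, 87.6 ± 3.4 and 88.9 ± 10.3 CPM (SD, n = 3 each). Within the second group, the 15 clustered H2B genes summed to 9.85, 12.5 and 12.2 CPM in wild-type libraries. They were at 13.4, 16.8 and 19.8 in *hrde-1(tm1200)* and 19.0, 15.99 and 17.5 in *hrde-2(qe20)*, so that every mutant library lay above every wild-type library. This sum was mostly that of *his-62* and *his-48*, with 775 and 402 of its 1340 counts. The clustered H3 genes without an intron were at 16.7, 22.3 and 20.8 CPM in wild-type libraries, 25.8, 26.1 and 27.3 in *hrde-1(tm1200)* and 25.4, 22.2 and 25.6 in *hrde-2(qe20)*. Here *hrde-1(tm1200)* lay above wild-type in every library, and *hrde-2(qe20)* overlapped it. The clustered H2A genes without an intron went the other way in *hrde-1(tm1200)*, at 19.8, 21.4 and 23.3 CPM in wild-type libraries, 19.5, 19.4 and 18.4 in *hrde-1(tm1200)* and 22.1, 16.6 and 20.9 in *hrde-2(qe20)*, so that every *hrde-1(tm1200)* library was below wild-type and *hrde-2(qe20)* overlapped it. The clustered H4 genes without an intron were at 23.8, 36.9 and 30.9 CPM in wild-type libraries, 23.6, 25.5 and 23.5 in *hrde-1(tm1200)* and 30.9, 22.1 and 24.8 in *hrde-2(qe20)*, and all groups overlapped. These sums were not tested. Among all single genes tested, the groups did not overlap for 22.8% in *hrde-1(tm1200)* and 32.2% in *hrde-2(qe20)* against wild-type.

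**Figure D2:**
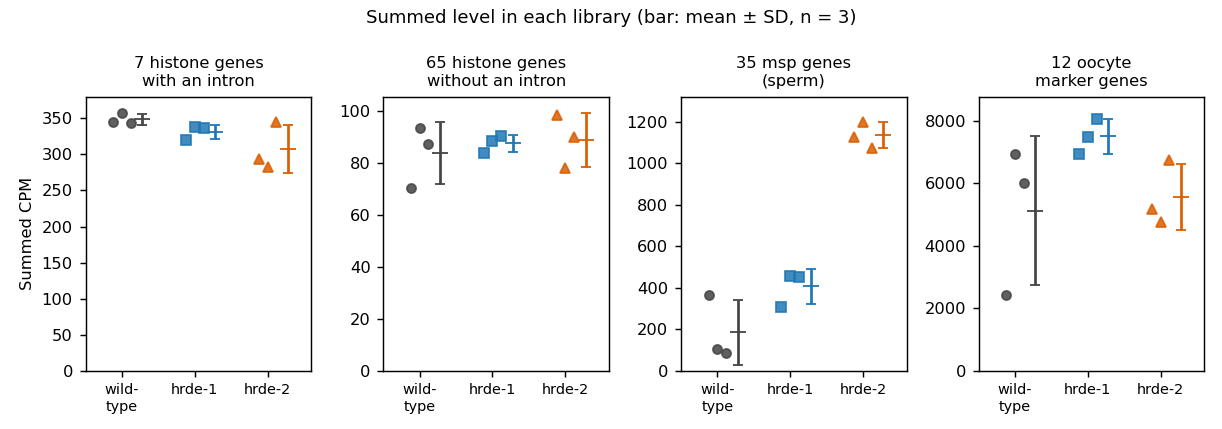
Summed CPM in each library (y axis) for the 7 histone genes with an intron, the 65 without one, 35 major sperm protein (*msp*) genes and 12 oocyte marker genes, by genotype (x axis). Points are libraries, and bars are the mean ± SD of 3 libraries. The histone sums of *hrde-2(qe20)* overlap those of the other genotypes, and for the genes with an intron *hrde-1(tm1200)* lies just below wild-type. The *msp* sums of *hrde-2(qe20)*, 1076 to 1201, lie above all others.

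Histone genes were then tested gene by gene in the fit over all genes. The filter on low counts kept 23 of the 72 (31.9%), compared with 11736 of 19711 protein-coding genes (59.5%), so that 49 histone genes could not be tested. Of these, 27 had counts, with at most 72 in total. All 7 genes with an intron and all 5 isolated genes were tested, but only 15 of the 64 clustered genes without an intron. The filter asked for about 1.01 CPM of the unscaled library in at least 3 libraries. No wild-type library reached this for *his-32*, *his-70* and *his-73*, so these 3 genes passed through the mutants in which they were high, and *his-70* through *hrde-2(qe20)* alone.

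In *hrde-1(tm1200)*, no histone gene passed the test. Of the 23 tested, 0 were called at an adjusted p under 0.05 by edgeR's quasi-likelihood test with Benjamini-Hochberg adjustment, against a background of 1.55% of all genes tested (1.24% higher and 0.313% lower). DESeq2 called 0 of the 25 histone genes to which it gave an adjusted p. By edgeR, 4 of the 23 had an unadjusted p under 0.05 (*his-32*, *his-59*, *his-62* and *his-73*), against 18.2% of all genes. The median log2 fold change was 0.09 over the 23 genes and -0.03 over all genes. Without wild-type replicate 1, 0 of 25 histone genes were called higher, against 6.12% of all genes in that fit, and 1 was called lower, the H4 gene *his-67*, against 7.11%. The 1 call of 25 lies below the 13.2% of all genes called in either direction without that library. This gene was at 1.44 CPM in that library, at 6.27 and 6.28 in the other wild-type libraries, at 2.17, 3.23 and 2.14 in *hrde-1(tm1200)* and at 6.43, 3.70 and 4.96 in *hrde-2(qe20)*.

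In *hrde-2(qe20)*, 2 histone genes were called higher and 1 lower, and 1 of the higher, *his-70*, is given as a description only. The H2B gene *his-48* and the H3.3-type gene *his-70* were higher, against a background of 7.57% of all genes, and the H4 gene *his-37* was lower, against a background of 4.25%. With *his-70* counted, these calls were 3 of 23, and 11.8% of all genes were called in either direction. DESeq2 called the same 3 genes, of 39 histone genes to which it gave an adjusted p. Because *his-70* was tested only through the libraries in which it was high, its call and adjusted p do not measure support for a rise. Without wild-type replicate 1, the backgrounds were 13.4% higher, 8.9% lower and 22.3% in either direction. The median log2 fold change was -0.05 over the 23 genes and -0.10 over all genes.

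The gene *his-37* (WBGene00001911) lies at 9547083 to 9547607 on the plus strand of chromosome V and encodes histone H4 from a gene with an intron. It was at 74.6, 59.3 and 50.4 CPM in wild-type libraries, 58.3, 56.1 and 44.3 CPM in *hrde-1(tm1200)*, and 38.6, 31.8 and 38.3 CPM in *hrde-2(qe20)*. Every *hrde-2(qe20)* library was below every library of the other groups. The log2 fold change was -0.76 ± 0.21 (SE, n = 3 against 3; adjusted p = 0.0306, edgeR) against wild-type, a fold of 0.589.

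Against *hrde-1(tm1200)*, *his-37* differed by -0.55 ± 0.21 (adjusted p = 0.15), and *hrde-1(tm1200)* differed from wild-type by -0.22 ± 0.20 (adjusted p = 0.592), or -0.03 without wild-type replicate 1. This call ended on leaving out wild-type replicate 2, *hrde-1(tm1200)* replicate 1 or 2, or any *hrde-2(qe20)* library, with adjusted p of 0.0523 to 0.151, and held without wild-type replicate 1 (-0.52, adjusted p = 0.0351). The gene shares 2 bp with *nstp-10* on the other strand, and reads over those bases were not counted. That neighbour differed by -0.41 in *hrde-2(qe20)* (adjusted p = 0.213).

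The other genes of the *his-37* cluster did not pass the test. The H2A gene *his-35* was at 52.5, 39.3 and 39.3 CPM in wild-type libraries, 27.6, 37.2 and 36.2 CPM in *hrde-1(tm1200)* and 31.4, 33.2 and 30.0 CPM in *hrde-2(qe20)*. Every mutant library was below every wild-type library, with log2 fold changes of -0.38 ± 0.20 (adjusted p = 0.329) and -0.47 ± 0.20 (adjusted p = 0.143). The H2B gene *his-41* had -0.23 ± 0.25 and -0.26 ± 0.25, with overlapping groups, and it overlaps C50F4.6 on the same strand. Without wild-type replicate 1, the highest library for the cluster, *his-35* was at -0.19 and -0.24 and *his-41* at 0.02 and 0.04, so the values of *his-41* turned positive. Together the 3 genes summed to 120.5 ± 23.4, 99.7 ± 8.8 and 80.6 ± 3.0 CPM (SD, n = 3, in the order of the groups above), with 146.8, 112.8 and 101.9 CPM in the wild-type libraries.

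The gene *his-48* (WBGene00001922), at 11324719 to 11325222 on the plus strand of chromosome IV, encodes histone H2B and has no intron. It had 18, 35 and 19 counts in wild-type, 31, 39 and 38 in *hrde-1(tm1200)* and 71, 69 and 82 in *hrde-2(qe20)*, which is 2.36, 3.01 and 3.41 CPM, 2.81, 4.67 and 4.06 CPM, and 7.61, 5.81 and 6.78 CPM. The *hrde-2(qe20)* libraries were above all others, and wild-type and *hrde-1(tm1200)* overlapped.

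The log2 fold change of *his-48* against wild-type was 1.20 ± 0.33 (SE, n = 3 against 3; adjusted p = 0.0349, edgeR), a fold of 2.30. Against *hrde-1(tm1200)* it was 0.81 ± 0.32 (adjusted p = 0.179). The call ended without wild-type replicate 2 or 3, *hrde-1(tm1200)* replicate 3 or any *hrde-2(qe20)* library (adjusted p of 0.0523 to 0.107), and held without wild-type replicate 1 (1.16, adjusted p = 0.0311). Its divergent H2A partner *his-47* had 1, 3 and 0 counts in wild-type, 4, 1 and 5 in *hrde-1(tm1200)* and 4, 5 and 5 in *hrde-2(qe20)*, too few to be tested.

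The gene *his-70* (WBGene00001944), at 4059647 to 4060172 on the minus strand of chromosome III, encodes an H3.3-type histone and has no intron. It had 5, 0 and 1 counts in wild-type, 10, 5 and 2 in *hrde-1(tm1200)*, and 20, 31 and 16 in *hrde-2(qe20)*. The *hrde-2(qe20)* libraries were above all others, but wild-type was at or near the limit that a count of 0 allows. The log2 fold change was 2.92 ± 0.85 (SE, n = 3 against 3, adjusted p = 0.0424, edgeR), and its size depends on these few wild-type counts. The gene passed the filter through *hrde-2(qe20)* alone, so these values are a description.

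Against *hrde-1(tm1200)*, *his-70* differed by 1.78 ± 0.73 (adjusted p = 0.193). This call ended without wild-type replicate 2 or 3, *hrde-1(tm1200)* replicate 2 or 3, or any *hrde-2(qe20)* library (adjusted p of 0.0508 to 0.151). Without wild-type replicate 1, which had 5 of the 6 wild-type counts, it was 4.87 (adjusted p = 0.00577). Its neighbour *his-69*, another H3.3-type gene, had 7 counts over all 9 libraries.

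**Figure D3:**
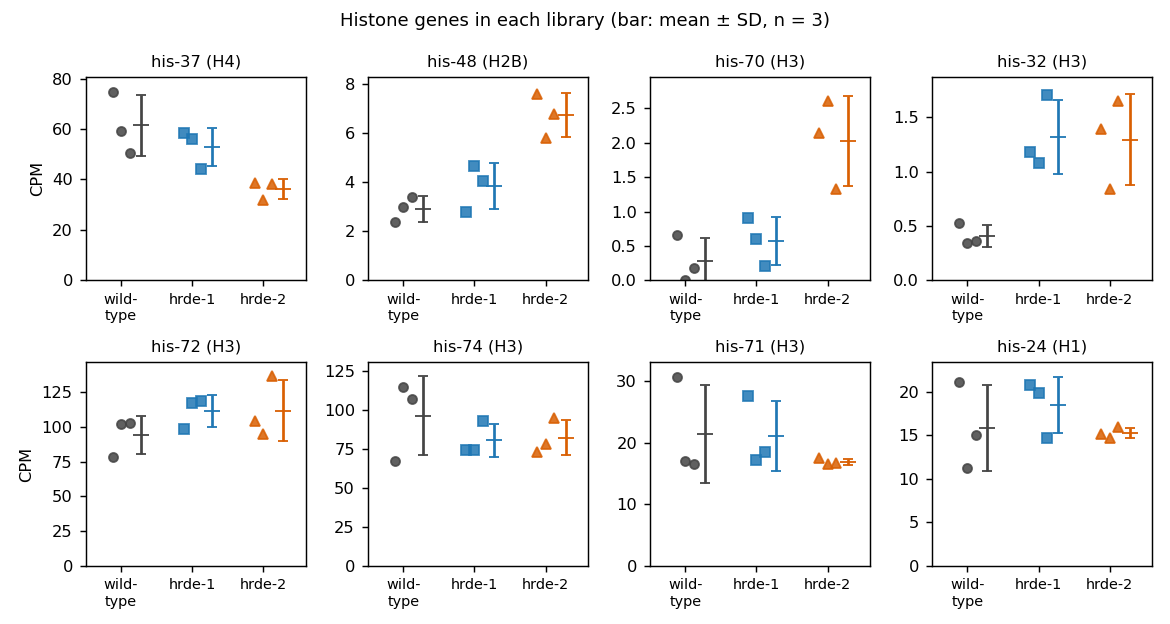
CPM in each library (y axis, from 0) of 8 histone genes by genotype (x axis). Points are libraries and bars the mean ± SD of 3 libraries; the bar of *his-70* in wild-type is cut at 0. The *hrde-2(qe20)* libraries lie below all others for *his-37*, at 31.8 to 38.6, and above all others for *his-48* and *his-70*, while *his-72*, *his-74*, *his-71* and *his-24* overlap between genotypes.

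The genes *his-32* and *his-73* had no call, and both passed the filter only through the mutant libraries, so the size of their fitted differences is partly set by that selection. The H3 gene *his-32* had 4, 4 and 2 counts in wild-type, 13, 9 and 16 in *hrde-1(tm1200)* and 13, 10 and 20 in *hrde-2(qe20)*. Both mutants lay above wild-type in every library, with log2 fold changes of 1.67 ± 0.57 (adjusted p = 0.165) and 1.64 ± 0.57 (adjusted p = 0.078). For the short isolated gene *his-73* they were 1.35 ± 0.55 (adjusted p = 0.226) and 1.30 ± 0.55 (adjusted p = 0.141), with 0.480 ± 0.180 CPM in wild-type libraries and 1.29 ± 0.39 and 1.25 ± 0.21 CPM in the mutants. Both comparisons share the wild-type libraries.

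The H3.3-type genes with high levels were not called in any comparison. For *his-72*, 78.5, 102 and 103 CPM were measured in wild-type libraries, 98.5, 118 and 118 CPM in *hrde-1(tm1200)* and 104, 94.6 and 137 CPM in *hrde-2(qe20)*, with log2 fold changes of 0.24 ± 0.20 and 0.24 ± 0.20 (adjusted p = 0.541 and 0.462). For *his-74* the values were 67.5, 115 and 107 CPM, 74.3, 74.4 and 93.2 CPM, and 73.5, 78.6 and 95.2 CPM, with -0.26 ± 0.22 and -0.23 ± 0.22. The groups overlapped for both genes, and a missing call does not show that levels were equal. Wild-type replicate 1 was the lowest of the 9 libraries for both.

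For the H3.3-type gene *his-71* and the linker histone gene *his-24*, wild-type replicate 1 was instead the highest of the 9 libraries. The gene *his-71* was at 30.6, 17.1 and 16.5 CPM in wild-type libraries, 27.5, 17.2 and 18.5 CPM in *hrde-1(tm1200)* and 17.5, 16.5 and 16.7 CPM in *hrde-2(qe20)*. The gene *his-24* was at 21.1, 11.2 and 15.1 CPM, 20.7, 19.9 and 14.7 CPM, and 15.1, 14.7 and 15.9 CPM. Neither was called, with log2 fold changes between -0.34 and 0.23 against wild-type. These values rested on wild-type replicate 1: without it, the log2 fold changes of the *hrde-1* and the *hrde-2* mutant were 0.36 and 0.09 for *his-71* and 0.53 and 0.30 for *his-24*, with no call (adjusted p of 0.143 to 0.814, edgeR).

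Of the clustered core genes, *his-59* (H3) and *his-62* (H2B), which lie in a cluster of 4 genes on chromosome IV, had higher fitted levels in *hrde-1(tm1200)*. For *his-59* these were 8.93, 10.0 and 9.51 CPM in wild-type libraries, 13.3, 12.2 and 15.5 CPM in *hrde-1(tm1200)* and 12.9, 10.9 and 11.3 CPM in *hrde-2(qe20)*, with 0.52 ± 0.23 (adjusted p = 0.25) and 0.30 ± 0.23 (adjusted p = 0.432). For *his-62* the log2 fold changes were 0.59 ± 0.26 (adjusted p = 0.261) and 0.40 ± 0.26 (adjusted p = 0.345). No library of either mutant overlapped wild-type for *his-59*, and for *his-62* only *hrde-1(tm1200)* did not overlap it. In all, the groups did not overlap for 5 of the 23 genes in *hrde-1(tm1200)*, against 22.8% of all genes, and for 7 in *hrde-2(qe20)*, against 32.2%.

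The core genes *his-64*, *his-63* and *his-68* were not called either. The H4 gene *his-64* was at 11 ± 3.6, 8.84 ± 1.41 and 7.91 ± 0.67 CPM in the wild-type, the *hrde-1* mutant and the *hrde-2* mutant, the H3 gene *his-63* at 4.87 ± 1.65, 6.49 ± 1.34 and 5.40 ± 1.18 CPM, and the H2A gene *his-68* at 12.5 ± 2.0, 10.3 ± 0.7 and 11.4 ± 2.1 CPM (SD, n = 3). Their log2 fold changes ran from -0.48 to 0.40 against wild-type, and their groups overlapped. Without wild-type replicate 1, the value of *his-63* in *hrde-2(qe20)* turned from 0.14 to -0.02.

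Between the mutants, no histone gene was called in the fit of all 9 libraries. Of the 23, 0 passed an adjusted p of 0.05 by edgeR, against a background of 5.67% of all genes (3.22% higher and 2.45% lower). DESeq2 called 0 of the 38 histone genes to which it gave an adjusted p. The unadjusted p was under 0.05 for 3 genes, *his-37*, *his-48* and *his-70*, against 20% of all genes, and the groups did not overlap for these and for *his-67*, 4 in all, against 32.5%. The median log2 fold change of *hrde-2(qe20)* against *hrde-1(tm1200)* was -0.04 over the 23 genes and -0.01 over all genes. Leaving out wild-type replicate 1 changed the filter, the scaling and the shared spread of this comparison, and *his-67* was then called higher, against a background of 8.23%, and *his-37* lower (-0.50, adjusted p = 0.0399), against 4.67%. These 2 calls of 25 compare with 12.9% of all genes in that fit. Deviations of same-numbered mutant libraries correlated weakly (r = 0.145, 0.114 and 0.249), and libraries of different number were not compared in this way. A fit blocked on that number was added over the 6 mutant libraries alone. This fit, chosen after seeing the data, called *his-37* lower (-0.54, adjusted p = 0.0251, edgeR), against a background of 7.63%. It also called *his-70* higher (1.84, adjusted p = 0.0357, edgeR), against 8.97%. Because *his-70* reached the filter level only in *hrde-2(qe20)* libraries, its values between the mutants are given as a description.

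**Figure D4:**
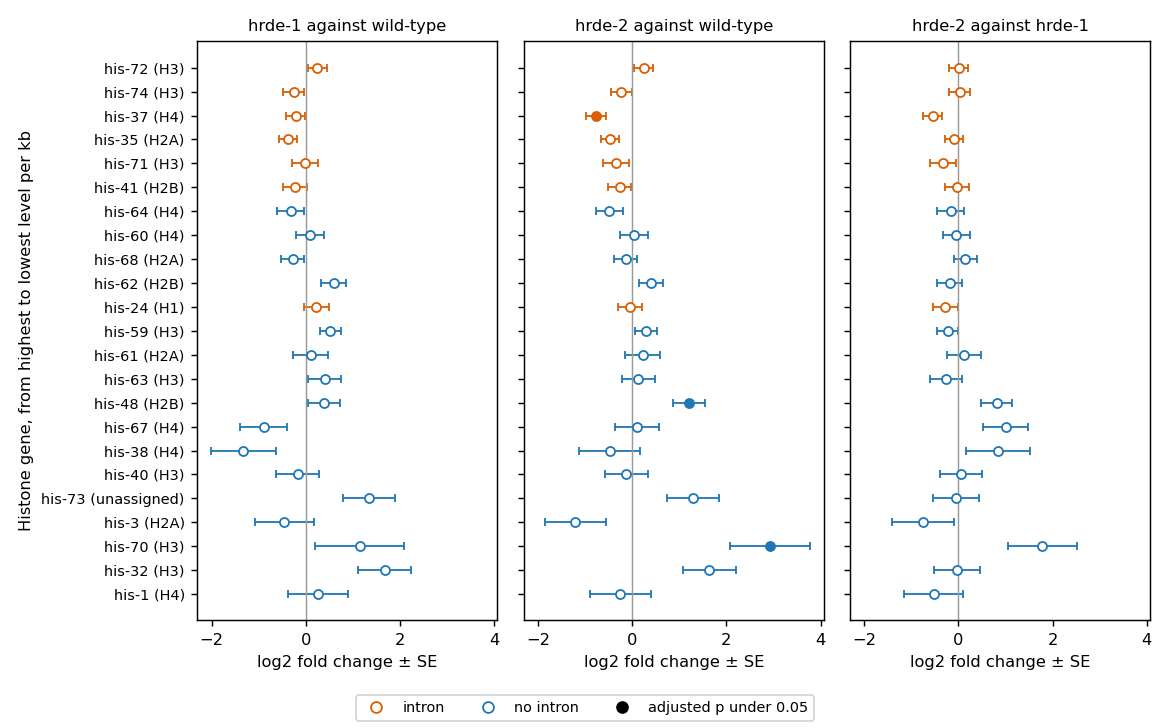
Log2 fold change ± SE (x axis) of the 23 histone genes tested, from the highest to the lowest level per kb (y axis), for *hrde-1(tm1200)* and *hrde-2(qe20)* against wild-type and for *hrde-2(qe20)* against *hrde-1(tm1200)*. Filled points have an adjusted p under 0.05, and orange points are genes with an intron. Only *his-37*, at -0.76, and *his-48* and *his-70*, at 1.20 and 2.92, are filled, all in the comparison of *hrde-2(qe20)* with wild-type.

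In the fit of all 9 libraries, sperm markers were called higher in *hrde-2(qe20)* against both other genotypes. Histone genes were called only against wild-type. For *his-37*, *his-48* and *his-70*, however, the *hrde-2(qe20)* libraries did not overlap those of *hrde-1(tm1200)* either. No test compared histone genes with sperm markers. Of 35 *msp* genes, which encode the major sperm proteins, 1 was at 0 in all libraries and 27 were tested. Of the tested genes, 26 rose in *hrde-2(qe20)*, against 7.57% of all genes. The list summed to 367, 103 and 86.6 CPM in wild-type libraries, 307, 459 and 455 in *hrde-1(tm1200)* and 1130, 1201 and 1076 in *hrde-2(qe20)*. All 3 sperm chromatin genes *spch-1*, *spch-2* and *spch-3* rose in *hrde-2(qe20)*. They summed to 20.4, 6.70 and 8.25 CPM in wild-type libraries, 17.1, 23.0 and 24.3 in *hrde-1(tm1200)* and 56.9, 73.7 and 55.1 in *hrde-2(qe20)*. In *hrde-1(tm1200)*, edgeR called 0 of the 27 *msp* genes and 0 of the 3 *spch* genes. Of these, 18 and 1 had an unadjusted p under 0.05, against 18.2% of all genes. DESeq2 called 12 *msp* and 0 *spch* genes higher, against 388 of 12482 genes. For both lists the overlap of wild-type with *hrde-1(tm1200)* rested on wild-type replicate 1, and every *hrde-1(tm1200)* sum lay above the other wild-type libraries. Between the mutants, edgeR called 9 of the 27 *msp* genes and 2 of the 3 *spch* genes higher, against 3.22% of all genes. The part of the sperm markers in the changes of *his-37*, *his-48* and *his-70* was not tested.

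Of 12 oocyte markers, such as the yolk receptor gene *rme-2*, 0 were called in any comparison by edgeR or DESeq2 (2, 0 and 0 at an unadjusted p under 0.05), with sums of 2414 to 6945 CPM in wild-type libraries, 6935 to 8074 in *hrde-1(tm1200)* and 4746 to 6754 in *hrde-2(qe20)*. Of 8 genes of the mitotic and early germline, 1 was called, *fog-3*, which promotes sperm fate. Its call was higher in both mutants (adjusted p = 0.0488 and 9.26e-04, edgeR), against 1.24% and 7.57% of all genes. This gene had 1, 1 and 0 counts in wild-type, 13, 5 and 14 in *hrde-1(tm1200)* and 45, 25 and 40 in *hrde-2(qe20)*. It passed the filter only through the mutants, so its calls are given as a description. No fold is given against a wild-type level under the limit of a 0. Of 12 genes of early embryos, none passed the filter, 4 were at 0 in all libraries, and the list summed to 0.515 to 1.97 CPM in wild-type libraries, 0.957 to 2.17 in *hrde-1(tm1200)* and 2.69 to 5.13 in *hrde-2(qe20)*, so that every *hrde-2(qe20)* library lay above all others. DESeq2, which was run without that filter, called 1 of them, *vet-6*, higher in *hrde-2(qe20)* (0, 0 and 4 counts in wild-type, 6, 3 and 7 in *hrde-1(tm1200)* and 23, 7 and 25 in *hrde-2(qe20)*). Over all genes, DESeq2 called 1286 of 14783 higher in that comparison. The part of the oocyte, germline and embryo markers in the histone values was not tested either.

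Other genes of the histone pathway were tested in the same fit. Of the 8 linker histone genes named *hil*, 6 were tested. In *hrde-1(tm1200)*, *hil-8* rose from 1.55 to 5.93 CPM (log2 fold change 1.95 ± 0.41, adjusted p = 0.0326, edgeR). It was the only call of the 6 there, against 1.24% of all genes higher. In *hrde-2(qe20)* it was at 3.60 CPM (1.23 ± 0.41, adjusted p = 0.0713). DESeq2 called *hil-8* higher in both mutants, against 388 of 12482 and 1286 of 14783 genes. It also called *hil-1* lower in *hrde-2(qe20)* than in *hrde-1(tm1200)*, against 451 of 14399 genes. This gene was at means of 9.03, 11.1 and 4.73 CPM in the 3 groups. By edgeR it had a log2 fold change of -1.23 ± 0.40 between the mutants (adjusted p = 0.0925) and -0.93 ± 0.40 in *hrde-2(qe20)* against wild-type (adjusted p = 0.149). The variant genes *htz-1*, which encodes H2A.Z, and *hcp-3* and *cpar-1*, which encode the centromeric H3 CENP-A and its relative, were at 215, 54.3 and 47.2 CPM in wild-type. None of these 3 was called in any comparison by edgeR or DESeq2, and 0 had an unadjusted p under 0.05.

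Of 9 genes with roles in the maturation of histone mRNA and in CSR-1 small RNA pathways, *csr-1* rose in *hrde-2(qe20)*, from 232 to 346 CPM (0.58 ± 0.17, adjusted p = 0.0426, edgeR). It encodes an Argonaute protein that in *C. elegans* is needed for histone mRNA maturation. The stem-loop binding protein gene *cdl-1* had a wild-type mean of 102 CPM and log2 fold changes of 0.43 ± 0.23 (adjusted p = 0.326) and 0.32 ± 0.23 (adjusted p = 0.379) in the mutants. In *hrde-2(qe20)*, edgeR called 1 of the 9 higher, against 7.57% of all genes, and DESeq2 called 3, against 1286 of 14783 genes. None was called in *hrde-1(tm1200)* by either tool (1 at an unadjusted p under 0.05, against 18.2% of all genes).

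Of 14 histone chaperone genes, edgeR called 0 in any comparison (1, 2 and 2 at an unadjusted p under 0.05 in *hrde-1(tm1200)*, in *hrde-2(qe20)* and between the mutants), and DESeq2 called 0, 1 and 1. These DESeq2 calls were higher in *hrde-2(qe20)*, against 1286 of 14783 and 617 of 14399 genes. Of 23 genes that act in DNA replication, such as the *mcm* helicase genes and *pcn-1*, both tools called 0 in every comparison. The unadjusted p was under 0.05 for 4, 0 and 0 of them. Over all genes, the shares under that unadjusted p were 18.2%, 27.8% and 20% in the same comparisons, a background for every list above. The median log2 fold change of the 23 replication genes was 0.22 in *hrde-1(tm1200)* and 0.17 in *hrde-2(qe20)*, against -0.03 and -0.10 over all genes. These genes summed to 1469 CPM in wild-type replicate 1 and to 3183 and 2791 CPM in the other wild-type libraries. The sums were 2666, 2817 and 3090 CPM in *hrde-1(tm1200)* and 2484.5, 2265 and 2997 CPM in *hrde-2(qe20)*. Every mutant sum lay above wild-type replicate 1, and both mutants overlapped the other wild-type libraries. The medians include wild-type replicate 1 and were not calculated without it.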

How the data were processed

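Per the file headers and the study's methods, the authors trimmed single-end 75-base reads with Trimmomatic 0.39, mapped them to WS258 with HISAT2 2.2.1 and deposited raw counts per gene from featureCounts (Subread 2.0.1) over exons, without strand, although the kit was directional. Reads mapping to several places or overlapping several genes were not counted. From these counts, symbols were taken from RefSeq by sequence name, and gene structure from the Ensembl annotation. Class was given by coding length, as in *his-1* (H4), *his-2* (H3), *his-3* (H2A) or *his-4* (H2B, or 1 codon less), and by textbook knowledge for *his-24*, *his-69* and *his-70*. The label H3.3-type was also textbook knowledge, as *his-71*, *his-72* and *his-74* have 136 codons like *his-2*, and no protein sequence was used.

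All 9 libraries were fitted in edgeR 4.0.16 (R 4.3.3; TMM scaling, filterByExpr, robust quasi-likelihood F-test, genotype only), with Benjamini-Hochberg adjustment over 12141 genes. SE is the fold change divided by the square root of F. The fit was checked on simulated counts, and DESeq2 1.42.0 was an alternative. Deviations of same-numbered libraries correlated at 0.145, 0.114 and 0.249 between the mutants, but at -0.25 to 0.20 with wild-type, so a block was tried over all libraries and, added after seeing the data, over the 6 mutant libraries; the main fit has none. The labels call the libraries biological triplicates.

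The histone genes, lists and tests were chosen with earlier results of these data known. Named were called genes, isolated genes of at least 1 CPM, the top 2 clustered genes of each class per kb, and called list genes; *his-28*, *his-32*, *his-38*, *his-40*, *his-47*, *his-57*, *his-60*, *his-67*, *his-69*, *hil-1*, *vet-6*, genes at 0 and genes with an unadjusted p under 0.05 were named after their values were seen. A search for stem-loops and levels over unique 75-base windows were planned and not run, as no genome sequence was used here.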

Additional observations from a re-analysis of the deposited data

How the results depend on the processing

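In *hrde-2(qe20)* against wild-type, the 2 genes called higher and 1 called lower became 0 lower with library size alone as scaling (*his-37*, adjusted p = 0.0610), 1 higher with no filter on low counts (*his-48*, adjusted p = 0.0510), 1 higher and 0 lower with only the 6 libraries compared, and 0 and 0 at an adjusted p under 0.01. Leaving out a library gave 0 to 2 higher and 0 to 1 lower; it gave 0 and 0 to 1 in *hrde-1(tm1200)*, and 0 to 1 and 0 to 1 between the mutants. Between the mutants, the 6 libraries alone called 1 gene lower (*his-37*, -0.55, adjusted p = 0.0393). The median log2 fold change of histone genes tested was -0.19 without the filter (50 genes tested) and -0.14 with 6 libraries (19 tested) in *hrde-1(tm1200)*, and -0.24 without the filter and 0.13 at a mean of at least 10 counts in *hrde-2(qe20)*. With replicate number as a block, the calls were 0 and 0 in *hrde-1(tm1200)*, 2 and 1 in *hrde-2(qe20)* and 0 and 0 between the mutants, so the block over all libraries changed no call; over the 6 mutant libraries alone, an alternative chosen after seeing the data, it called 1 gene higher (*his-70*) and 1 lower (*his-37*) between the mutants, and 1058 higher and 900 lower of all genes, against 391 and 297. DESeq2 size factors, removal of ribosomal RNA genes and the DESeq2 test changed no count of calls. Over all genes, library size alone moved the split in *hrde-2(qe20)* from 919 higher and 516 lower to 954 and 323, and between the mutants from 391 and 297 to 517 and 253; no filter called 474 and 185 in *hrde-1(tm1200)*, against 150 and 38. A gap of 2000 or 20000 bp left 67 genes clustered, in 17 and 13 clusters. The stem-loop search and the unique-window levels were not run. Low counts of 49 histone genes limit what can be tested, and *his-70* reached the filter level only in the *hrde-2(qe20)* libraries in which it was high.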
